A study of Mus musculus with 4 samples.

Results

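The genes described here are 40 genes of autophagy and mitophagy, named by symbol and not by any measured value: the initiation kinases, the phosphatidylinositol 3-kinase (PI3K) complex, lipid transfer proteins, the conjugation enzymes, the ATG4 proteases, the ATG8 family, cargo receptors, mitophagy receptors, the MiT/TFE transcription factors and lysosome membrane proteins. All 40 were found among the 14924 genes of the table. RNA-seq was made from whole lenses of mice 1 month old, on a C57BL/6J background. The groups were 2 libraries of S100A4-/- lenses, which are null for *S100a4*, and 2 libraries of lenses of WT littermates, with no further treatment. Each library came from a pool of 6 to 12 lenses, so the spread between libraries is a spread between pools, and the sexes of the pooled mice were not given per library.

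Autophagy wraps cytoplasm or organelles in a double membrane, the autophagosome, and delivers them to lysosomes to be broken down. Mitophagy is its form for mitochondria. The lens is known for organelle removal: epithelial cells at its surface keep their mitochondria and nuclei, whereas the fiber cells that make up its bulk lose nuclei, mitochondria and endoplasmic reticulum as they mature, and the mitophagy receptor BNIP3L takes part in that loss. Since whole lenses were sequenced, fewer cells of a type and less RNA per cell cannot be told apart in these values.

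The libraries held 81602367 and 74108017 reads in S100A4-/- and 70253985 and 68038158 reads in WT. The values are read counts divided by a size factor per library, written below as normalized values, with 1 read worth 0.856 and 1.01 in S100A4-/- and 1.04 and 1.09 in WT. The targeted gene was low in both libraries labelled null and high in both labelled WT. *S100a4* (chr3:90603771-90606045, mm10), which encodes a calcium-binding protein, had normalized values of 14.6 and 18.2 in S100A4-/- and 14419.8 and 14385 in WT, or 17 and 18 reads against 13810 and 13138. Its log2 fold change was −9.70 ± 0.10 (SE), with an adjusted p of 6.42e-41 (limma, Benjamini-Hochberg over 14780 genes, as for all adjusted p-values below).

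Of the 40 genes, all tested, 2 were lower in S100A4-/- and none was higher, at an adjusted p of at most 0.05 with no fold threshold. Both lower genes, *Atg3* and *Atg5*, encode parts of the machinery that attaches ATG8 proteins to membranes. Over all genes tested, 6.96% were called, 1.33% lower and 5.62% higher. At an unadjusted p under 0.05, 4 genes were lower (*Atg3*, *Atg5*, *Gabarap* and *Bnip3l*) and none higher, against 17.7% of all genes in either direction and 6.71% lower, and edgeR and DESeq2 also called 0 genes higher. No gene of the 40 changed by 2-fold or more with an adjusted p of at most 0.05. Over all genes the share was 3.72%, with 3.65% higher and 0.0744% lower. For each of the 40 the 95% interval excluded a 2-fold change in either direction, and for 39 of them, all but *Atg5*, it excluded a 1.5-fold change. Such an interval was found for 64.8% of all genes, and for 93.5% of the 9611 genes whose mean value lay within the range of the 40. The spread behind these intervals is drawn by limma largely from all genes, and not from the pools of the gene alone. Of these 9611 genes, 3.99% were called higher and 1.74% lower, and the median size of the log2 fold change was 0.083, close to the 0.087 of the 40 genes.

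The 40 genes together held 0.139% and 0.130% of reads in S100A4-/- and 0.137% and 0.135% in WT. Their summed normalized values were 97333 and 97607 in S100A4-/- and 100168 and 100632 in WT, a ratio of 0.971. The log2 fold changes ran from −0.39 (*Atg5*) to 0.21 (*Atg4d*), with a median of −0.04, against −0.01 for all genes tested. There were 26 below 0 and 14 above, while 51.2% of all genes were below 0. Both S100A4-/- libraries lay below both WT libraries for 14 of the 40 genes and above them for 4, and for 22 the groups overlapped. Over all genes, 23.2% lay below and 23.7% above. Replicate libraries differed over the 40 genes by a median of 0.08 on the log2 scale in S100A4-/- and 0.06 in WT, and over all genes by 0.13 and 0.12.

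**Figure D1:**
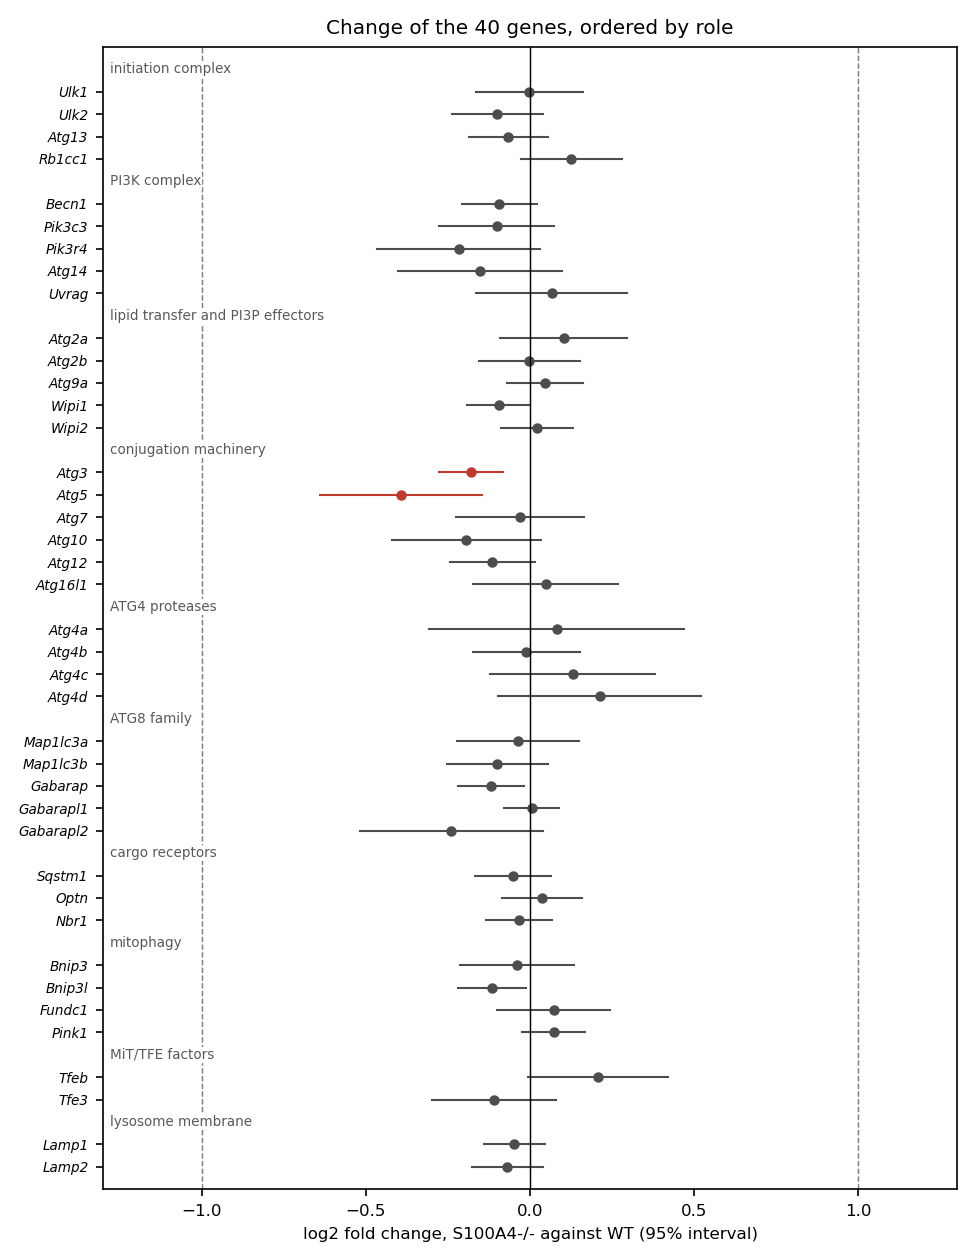
Log2 fold change of S100A4-/- against WT (x axis) with its 95% interval for each of the 40 genes, grouped by role, where red marks an adjusted p of at most 0.05 and dashed lines mark a 2-fold change. The conjugation enzymes *Atg3* and *Atg5* are the red points, and no interval reaches a dashed line.

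The conjugation machinery links ATG8 proteins to phosphatidylethanolamine through an E1-like enzyme (ATG7), E2-like enzymes (ATG3 and ATG10) and the ATG12-ATG5-ATG16L1 complex. *Atg3*, the E2-like enzyme that passes ATG8 proteins to the lipid, lies at chr16:45158785-45188538 on the plus strand (ENSMUSG00000022663). Its normalized values were 4922 and 4837 in S100A4-/- and 5494 and 5559.9 in WT. The groups did not overlap, and the libraries within each group lay close together. This was a log2 fold change of −0.18 ± 0.05 (SE; 95% interval −0.28 to −0.08), a fall of 11.7%, with an adjusted p of 0.0138 by limma, 0.0238 by edgeR and 0.0273 by DESeq2.

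*Atg5*, which forms the ATG12 conjugate that directs ATG8 lipidation, lies at chr10:44268358-44364291 on the plus strand (ENSMUSG00000038160). Its normalized values were 256 and 246 in S100A4-/- and 339 and 321 in WT, from 299, 243, 325 and 293 reads. Both S100A4-/- libraries were again the lower ones. None of the 50-base stretches of the *Atg3* and *Atg5* transcripts occurred in a transcript of another gene. The log2 fold change was −0.39 ± 0.12 (SE; 95% interval −0.64 to −0.15), a fall of 23.8%, with an adjusted p of 0.0406 by limma, 0.0443 by edgeR and 0.273 by DESeq2. With any 1 of the 4 libraries left out, neither gene passed the threshold (adjusted p 0.0988 to 0.164 for *Atg3* and 0.0733 to 0.270 for *Atg5*). Both calls also ended with the libraries scaled to equal totals (adjusted p = 0.226 and 0.136) and with limma without the variance trend (0.386 and 0.170), that of *Atg3* with quantile normalization (0.0588), and that of *Atg5* with a mean value of at least 50 (0.0506).

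The remaining conjugation genes were not called. *Atg12*, the ubiquitin-like partner of ATG5, had a log2 fold change of −0.12 (adjusted p = 0.359). *Atg10*, which joins ATG12 to ATG5, stood at −0.19 (adjusted p = 0.386). For both, the S100A4-/- libraries lay below the WT libraries, whereas *Atg7* (−0.03) and *Atg16l1* (0.05) overlapped. The summed normalized value of the 6 conjugation genes was 7939 and 7795 in S100A4-/- and 8747 and 8787 in WT, a ratio of 0.897.

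The upstream sequences of *Atg3* and *Atg5* are shown because these are the genes called, and beside them that of *Lamp1*, a lysosome membrane gene of the list that was not called. TFEB and TFE3, the factors that drive lysosomal and autophagy genes, are known to bind E-box sequences, so CACGTG and the longer TCACGTGA, which contains it, were searched for. Both read the same on the opposite strand. The sequences come from RefSeq (GRCm38.p6, plus strand, 5′ to 3′) and end at the RefSeq start site, or for *Atg3* 44 bases before it, where the annotated gene starts earlier. Capitals mark the matches. Every sequence printed holds a match, so *Lamp1* gives no contrast without one, and only the 100 bases before its start are shown.
Atg3, chr16:45158579-45158784: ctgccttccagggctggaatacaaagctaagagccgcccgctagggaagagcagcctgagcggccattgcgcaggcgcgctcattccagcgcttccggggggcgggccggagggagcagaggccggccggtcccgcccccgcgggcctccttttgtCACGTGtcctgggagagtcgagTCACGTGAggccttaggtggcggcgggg
Atg5, chr10:44268089-44268338: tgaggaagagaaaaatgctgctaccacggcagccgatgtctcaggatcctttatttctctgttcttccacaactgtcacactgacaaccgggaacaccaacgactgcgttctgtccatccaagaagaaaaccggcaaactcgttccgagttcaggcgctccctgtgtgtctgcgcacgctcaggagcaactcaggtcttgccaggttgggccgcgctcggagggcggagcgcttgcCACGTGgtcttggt
Lamp1, chr8:13159061-13159160: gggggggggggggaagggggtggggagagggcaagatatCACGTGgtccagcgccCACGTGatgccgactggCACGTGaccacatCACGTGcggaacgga

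Windows from 250 bases before to 50 bases after the start were found for 33 of the 40 genes, in 39 windows. CACGTG occurred in 6 of these 39 windows, those of *Atg3*, *Atg5*, *Atg7*, *Atg14*, *Bnip3* and *Lamp1*, and in 7.15% of all 32851 windows. The RefSeq starts used for *Atg7* and *Atg14* lie inside the annotated genes, which begin at chr6:114643097 (plus strand) and chr14:47570649 (minus strand). Their 250 bases, chr6:114670846-114671095 and chr14:47568435-47568684, are thus not upstream of the whole gene. The member windows were also richer in GC, with a median of 59.6% over the 250 bases against 52.4% for all windows. TCACGTGA occurred in the *Atg3* window alone among the 39, and in 0.974% of all windows. Of the 6 genes with a match, *Atg3* and *Atg5* were called, and *Atg7*, *Atg14*, *Bnip3* and *Lamp1*, which holds CACGTG 4 times, were not. A match is a stretch of letters and no measured binding site.

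The ATG8 proteins are the ubiquitin-like proteins that coat the autophagosome and bind cargo receptors. Their transcripts differed widely in level. Per kilobase of exons, *Gabarapl1* was the highest of all 40 genes, with 8871 ± 28.7 (SD, n = 2) in WT, and stood at rank 98 of 14782 genes. *Gabarap* followed with 3344 ± 50.1, *Map1lc3a* with 522 ± 52.9. *Map1lc3b*, the LC3 form most often used as an autophagy marker, was far lower, and the ratio of *Gabarapl1* to *Map1lc3b* per kilobase was 69.3 and 69.8 in WT and 75.9 and 73.7 in S100A4-/-. The size of this ratio depends on the length used. Per kilobase of the longest transcript, the WT values were 9812 for *Gabarapl1* and 232 for *Map1lc3b*, a smaller ratio. *Gabarapl1* made up 68.0% and 68.7% of the ATG8 family's level per kilobase in WT and 71.0% and 69.2% in S100A4-/-. *Gabarap* made up 25.8% and 25.7% in WT and 23.4% and 25.1% in S100A4-/-, and these 2 genes held most of the family's level in all 4 libraries. Of the 50-base stretches of *Gabarapl1*, 23.1% lie in the overlapping gene *1700101I11Rik*, and 12.2% of those of *Gabarapl2* and 5.89% of those of *Map1lc3b* occur in genes elsewhere, so these levels are less certain.

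In the comparison of genotypes, *Gabarapl1* had normalized values of 18111 and 17731 in S100A4-/- and 17898 and 17816 in WT. The groups overlapped, with a log2 fold change of 0.01 (95% interval −0.08 to 0.09, adjusted p = 0.970). For *Gabarap* the normalized values were 5476 and 5892 in S100A4-/- and 6233 and 6102 in WT. Here the S100A4-/- libraries were the lower ones, but the log2 fold change of −0.12 did not pass (adjusted p = 0.169). *Map1lc3a* had 599 and 601 in S100A4-/- between 661 and 573 in WT (−0.04, adjusted p = 0.891). *Map1lc3b* (−0.10, adjusted p = 0.542) and *Gabarapl2* (−0.24, adjusted p = 0.381) were lower in both S100A4-/- libraries without passing the test.

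**Figure D2:**
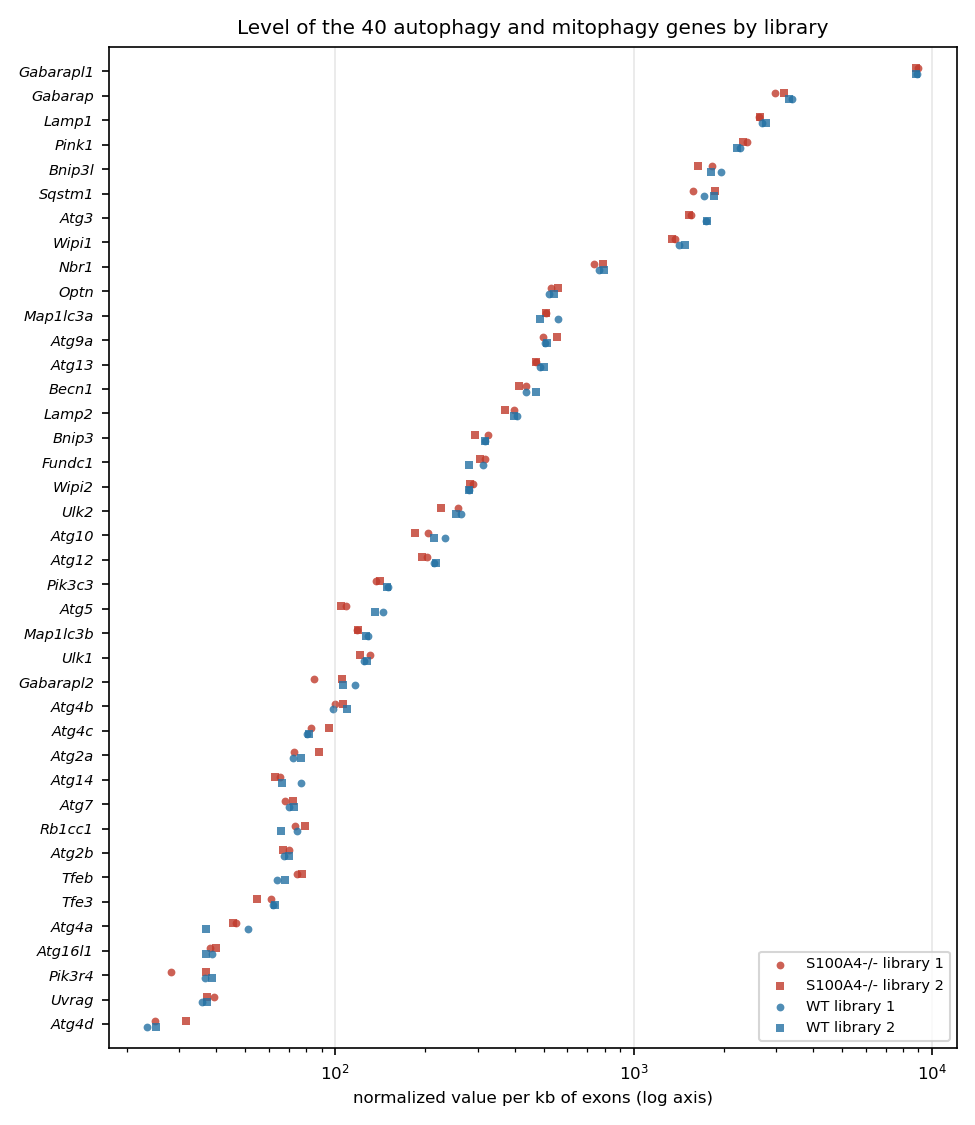
Normalized value per kilobase of exons (x axis, log scale) of each of the 40 genes, ordered by their WT mean, with a point for each of the 2 S100A4-/- (red) and 2 WT (blue) libraries. *Gabarapl1* is the highest and *Atg4d* the lowest, and for most genes the points of the 4 libraries lie close to each other against the range of levels between genes.

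Among the 12 highest genes per kilobase, 1 mitophagy kinase and 1 mitophagy receptor stood near the top. In WT, *Lamp1* had 2727 ± 56.7 (SD, n = 2) per kilobase, *Pink1* 2246 ± 36.9 and *Bnip3l* 1885 ± 102. *Sqstm1* had 1786 ± 99.5, *Atg3* 1752 ± 14.7 and *Wipi1* 1453 ± 41.6. *Nbr1* had 781 ± 21.6, *Optn* 531 ± 16.2 and *Atg9a* 508 ± 6.56. Of these neighbours in the order, *Bnip3l* overlapped *Sqstm1*, *Sqstm1* overlapped *Atg3*, and *Map1lc3a* overlapped both *Optn* and *Atg9a* between WT libraries. Of the 39 neighbouring pairs in the whole order, 16 overlapped. *Atg5* had 140 ± 5.58 and the lowest gene, *Atg4d*, 24.2 ± 1.12. All genes had a median of 66.7, and 33 of the 40 lay above it. With the longest transcript as the length, *Gabarapl1* kept the first place and 10 of the 12 highest genes were shared.

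The mitophagy genes are the kinase gene *Pink1*, which marks damaged mitochondria, and the receptor genes *Bnip3*, *Bnip3l* and *Fundc1* of the outer mitochondrial membrane. *Pink1* had normalized values of 6392 and 6231 in S100A4-/- and 6074 and 5934 in WT. Both S100A4-/- libraries were higher, but the difference of 0.07 on the log2 scale did not pass the test (95% interval −0.02 to 0.17, adjusted p = 0.461). *Bnip3l* had 7070.1 and 6359.65 in S100A4-/- and 7552 and 6996 in WT. Its groups overlapped, with a log2 fold change of −0.12 (95% interval −0.22 to −0.01, adjusted p = 0.205). Of its 50-base stretches 20.8% also occurred in the pseudogene *Bnip3l-ps*. Of those of *Bnip3*, 36.9% occurred in genes elsewhere and 15.9% lie in the overlapping gene *Gm45507*, so the values of both genes are less certain. *Bnip3* (−0.04) and *Fundc1* (0.07) were not called.

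The cargo receptors tie ubiquitinated material to ATG8 proteins. *Sqstm1*, which encodes p62, had normalized values of 5302 and 6283 in S100A4-/- and 5756 and 6229 in WT. The libraries of a genotype differed here by more than the genotypes did (log2 fold change −0.05, adjusted p = 0.699). *Nbr1* had 5064 and 5420.15 against 5260.45 and 5470.1 in WT (−0.03, adjusted p = 0.796). *Optn* had 1990.2 and 2099.95 against 1950.5 and 2037 (0.04, adjusted p = 0.826). None of the 3 separated the genotypes. Of the 50-base stretches of *Sqstm1*, 15.5% lie in the overlapping gene *Mrnip*.

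Earlier steps of the pathway were not called either. Autophagy starts with the ULK kinases and their partners ATG13 and RB1CC1. The log2 fold changes were −0.0024 for *Ulk1*, −0.10 for *Ulk2*, −0.07 for *Atg13* and 0.13 for *Rb1cc1*, with adjusted p-values from 0.412 (*Rb1cc1*) to 0.993 (*Ulk1*). The PI3K complex makes the lipid signal PI3P on the forming membrane. Its genes stood at −0.09 (*Becn1*), −0.10 (*Pik3c3*), −0.22 (*Pik3r4*), −0.15 (*Atg14*) and 0.07 (*Uvrag*), and the smallest adjusted p was 0.368 (*Pik3r4*). Of the 50-base stretches of *Becn1*, 36.8% lie in the overlapping gene *Cntd1*, and of those of *Uvrag*, 15.9% lie in *Gm45187*. The summed normalized value of the PI3K complex was 4594 and 4508 in S100A4-/- and 4749.85 and 4976 in WT.

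PI3P is read by the WIPI proteins, while ATG9A and the ATG2 proteins bring in lipid. *Wipi1* had normalized values of 6050.15 and 5946 in S100A4-/- and 6278.5 and 6538 in WT. The S100A4-/- libraries were both lower, at a log2 fold change of −0.10 that did not pass (adjusted p = 0.292). *Atg9a* had 2873 and 3187 against 2903 and 2956 in WT, with overlapping groups (0.05, adjusted p = 0.744), and 29.7% of its 50-base stretches lie in the overlapping gene *Gm29253*. *Wipi2* (0.02), *Atg2a* (0.10) and *Atg2b* (−0.0022) were not called. The ATG4 proteases, which trim ATG8 proteins and release them from membranes, had log2 fold changes of 0.08 (*Atg4a*), −0.01 (*Atg4b*), 0.13 (*Atg4c*) and 0.21 (*Atg4d*), none called. Of the 50-base stretches of *Atg4a* 51.2% occurred elsewhere, among them in the pseudogene *Atg4a-ps*, and 14.6% of those of *Atg4d* lie in the overlapping gene *Kri1*.

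The MiT/TFE genes and the lysosome membrane genes close the list. *Tfeb* had normalized values of 422 and 439.855 in S100A4-/- and 362 and 384 in WT. Both S100A4-/- libraries were higher, but the log2 fold change of 0.21 did not pass the test (95% interval −0.01 to 0.42, adjusted p = 0.302). *Tfe3* lay the other way, with 565 and 508 against 574 and 581 in WT (−0.11, adjusted p = 0.602). *Lamp1*, the abundant glycoprotein of the lysosome membrane, had 7028 and 7083 in S100A4-/- and 7188 and 7403 in WT. Its S100A4-/- values were both lower by a small margin (−0.05, 95% interval −0.14 to 0.05, adjusted p = 0.655), and *Lamp2*, which serves in fusion and in chaperone-mediated autophagy, stood at −0.07 (adjusted p = 0.550).

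Genes around the 40 were taken from 6 further lists, of which 147 of 153 genes were in the table. Of the 147, 5 were called higher and 0 lower, beside 5.62% and 1.33% of all genes, and 11 were lower at an unadjusted p under 0.05, against 6.71% of all genes. edgeR and DESeq2 called 0 lower as well. The lists of further autophagy factors (21 genes), of further cargo and mitophagy receptors (23 genes) and of fusion factors (16 genes) held no call, with 0, 2 and 1 genes at an unadjusted p under 0.05, against 17.7% of all genes. In the lysosomal proton pump, which acidifies the lysosome, 14 of 16 genes had log2 fold changes below 0 and 8 lay lower in both S100A4-/- libraries, with a median of −0.07, but none was called. Over all genes, 51.2% were below 0 and 23.2% lay lower in both S100A4-/- libraries. The summed normalized value of the pump genes was 32069 and 33682 in S100A4-/- and 34546 and 34543 in WT.

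Of 36 lysosomal hydrolases and membrane proteins, 3 were higher, where 5.62% of all genes were called higher. *Ctsh* (chr9:90054152-90076089), which encodes the lysosomal protease cathepsin H, had normalized values of 367 and 333 in S100A4-/- and 137 and 155 in WT, a log2 fold change of 1.26 ± 0.14 (SE, adjusted p = 7.64e-09). *Ctss*, which encodes cathepsin S, the protease of antigen-presenting cells, had 50.5 and 37.5 in S100A4-/- and 14.6 and 10.9 in WT, a log2 fold change of 1.70 ± 0.42 (SE, adjusted p = 5.51e-03). *Ostm1*, which encodes a partner of a lysosomal chloride transporter, had 579 and 569.6 against 511 and 417, a log2 fold change of 0.31 ± 0.10 (SE, adjusted p = 0.0488 by limma and 0.319 by DESeq2). In each, both S100A4-/- libraries lay above both WT libraries. Of 35 genes of mTORC1 and AMPK control, the nutrient and energy sensors above autophagy, 2 were higher, a share close to the 5.62% of all genes. *Deptor*, an mTOR inhibitor, had 129 and 106 against 54.3 and 41.6 in WT, a log2 fold change of 1.29 ± 0.24 (SE, adjusted p = 1.87e-04). *Sesn2*, a stress-induced mTORC1 inhibitor, had 195 and 198 against 101 and 123, a log2 fold change of 0.81 ± 0.17 (SE, adjusted p = 8.77e-04). All 5 calls were lost with limma without the variance trend, where the adjusted p of *Ctsh* was 0.0551. *Ctsh* stayed past the threshold with any 1 library left out. Without S100A4-/- replicate 1 or 2, the adjusted p rose to 0.255 and 0.118 for *Ctss*, 0.391 and 0.321 for *Ostm1*, 0.154 and 0.0626 for *Deptor* and 0.142 and 0.137 for *Sesn2*, and without WT replicate 2 it was 0.555 for *Ostm1*.

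**Figure D3:**
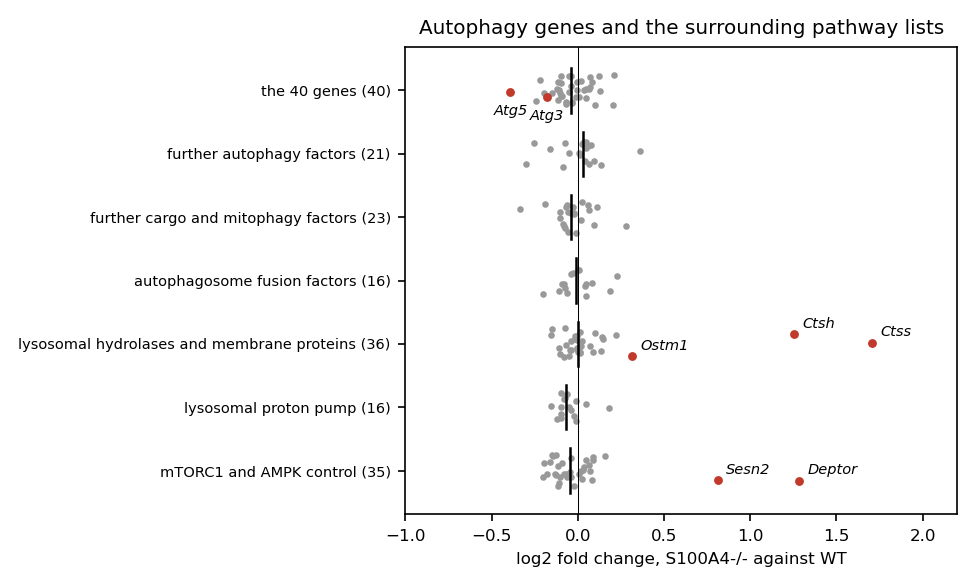
Log2 fold change of S100A4-/- against WT (x axis) for the 40 genes and for each surrounding list, with the number of genes tested in brackets, a point per gene, red for an adjusted p of at most 0.05 and a black bar at each list's median. Genes past 0.5 are confined to *Ctsh*, *Ctss*, *Deptor* and *Sesn2*, and the 40 genes lie between −0.39 and 0.21.

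Marker transcripts named for other cell types moved with genotype, and their part in any of these values was not tested. Rod photoreceptor markers were called higher for 9 of 9 genes, with summed normalized values of 9722 and 9429 in S100A4-/- and 2347 and 2503 in WT, led in normalized value, not divided by length, by *Gnat1*. Müller glia markers were called higher for 4 of 5, with 6853 and 6689 against 2639 and 2856. Most of these sums came from *Glul*, with 5387 and 5421 against 1779 and 1923. *Aqp4* was not called, with 753 and 698 against 659 and 702 (adjusted p = 0.637). Melanocyte and pigment epithelium markers were called higher for 5 of 6, with 1241 and 1299 against 209.9 and 302, led by *Dct* in S100A4-/- (581 and 582) and by *Tyrp1* in WT (92.9 and 153). These markers are named for cells of the eye outside the lens. The study reported higher levels of several photoreceptor proteins and of glutamine synthetase, encoded by *Glul*, in S100A4-/- lenses. It reads them as retinal genes induced in the lens itself. Which cells held the transcripts was not tested here. Macrophage markers were called higher for 4 of 7, with 303 and 264 against 107 and 87.6, led by *Csf1r*, and for 1 of 7 by DESeq2. Cone markers were called higher for 4 of 6, with 283 and 302 against 123 and 130.3, though DESeq2 called 0. *Opn1mw*, the cone marker highest in WT, was not among the 4 (adjusted p = 0.558). Red blood cell markers were called higher for 1 of 5, *Hbb-bs*, with sums of 294 and 259 against 169 and 98.5. Endothelial markers were called higher for 1 of 5, with sums of 182 and 198 against 97.1 and 137. The called gene was *Kdr*, with 74.5 and 60.8 in S100A4-/- against 9.40 and 9.85 in WT (adjusted p = 3.90e-06), and the sums of the other 4, taken after seeing the data, overlapped, at 107 and 137 against 87.7 and 127. *Tek*, the endothelial marker highest in WT, lay lower in both S100A4-/- libraries, at 46.2 and 44.6 against 49.1 and 59.1 (adjusted p = 0.738). The listed markers *Slc45a2* and *Aif1* were not in the table and have no value here. Of the markers in the table none was at 0 in all libraries, though *Mlana* (1 and 2 reads) and *Adgre1* (3 and 1 reads) had at most 3 reads in each WT library.

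Lens markers were present in every library. The summed normalized value of the 12 fiber markers, led by the crystallin gene *Cryaa*, was 2.71e+07 and 2.91e+07 in S100A4-/- and 2.92e+07 and 2.94e+07 in WT, a ratio of 0.958. That of the 5 epithelial markers, led by *Pax6*, was 21359 and 21109 in S100A4-/- and 21116 and 21502 in WT, a ratio of 0.996. By limma 0 of 12 fiber and 0 of 5 epithelial markers were called, with 1 and 3 at an unadjusted p under 0.05, against 17.7% of all genes. The fiber gene was *Mip*, a water channel of the fiber membrane, with a log2 fold change of −0.12 (adjusted p = 0.124 by limma), which edgeR (adjusted p = 0.0290) and DESeq2 (adjusted p = 0.0352) called lower. The epithelial genes lay in opposite directions, *Gja1* at 0.15 (adjusted p = 0.0688), *Cdh1* at −0.16 (adjusted p = 0.104) and *Pdgfra* at −0.14 (adjusted p = 0.108), and neither edgeR nor DESeq2 called them. *Kdr*, *Mip* and these 3 genes were named after their values were seen. For comparison, the ratio of the 40 autophagy and mitophagy genes was 0.971, while that of the rod markers was 3.95.

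**Figure D4:**
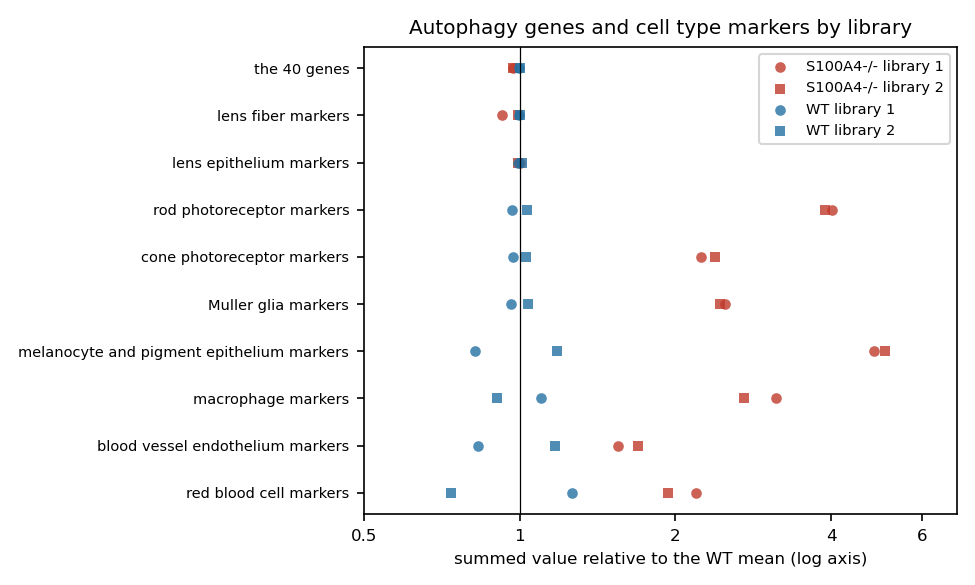
Summed normalized value of the 40 genes and of each marker list in every library, divided by the mean of the WT libraries (x axis, log scale), with red for S100A4-/- and blue for WT. The 40 genes and both lens lists lie near 1 in all 4 libraries, whereas rod, cone, Müller glia, pigment, macrophage and red blood cell markers lie above the WT libraries in both S100A4-/- libraries, as does the endothelial sum, which overlaps between the groups without *Kdr*.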

How the data were processed

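Strand-specific polyA libraries were sequenced from pooled lenses. Per the labels and the study's methods, the authors used Trim Galore for trimming, STAR for alignment to mm10 (GRCm38v73 genome and transcriptome) and HTSeq for counting reads of a single locus, and left out genes that did not reach 10 reads in any library. The tool versions and the HTSeq strand setting were not given in the sources used here. What the authors deposited is a normalized signal, these counts divided by 1 DESeq2 size factor per library. They were whole multiples of 1 read in 100% of cases (tolerance 0.01 reads), which gave the library totals and the read counts used by the count tests. Reads without molecular identifiers are not independent molecules, and counting error alone bears on the limit of 3 reads.

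The 40 genes and the lists were chosen with earlier results of these data known. S100A4-/- was compared with WT by limma (3.58.1, R 4.3.3; lmFit, eBayes with a trend) on log2(value + 1) for the 14780 genes that reached a value of 10 in some library, with Benjamini-Hochberg adjustment over all of them. Fold changes are on the log2(value + 1) scale. The study's fold threshold of 2 was applied as an additional rule. Alternatives were edgeR (4.0.16, quasi-likelihood) and DESeq2 (1.42.0) on the recovered reads, pseudocounts of 0.5 and 5, other filters, leaving out each library, the replicate number as a block, no variance trend, and scaling by TMM factors, equal totals or quantiles. The fit was tested on simulated data.

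Levels between genes were compared per kilobase of merged exons (GENCODE M21, GRCm38, 99.0% of genes matched). Genes called or among the 12 highest per kilobase have every library's value. From the surrounding lists the called genes, at most 20, were named, and from the marker lists the most abundant gene. Stretches of 50 bases were matched against all annotated transcripts.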

Additional observations from a re-analysis of the deposited data

How the results depend on the processing

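With 2 pools per group, the measured spread within a group rests on 1 difference between libraries, so a change that missed the threshold is not shown to be absent. The SEs, intervals and p-values of limma add to it the spread of all genes, on which they largely rest. None of the 40 genes changed direction past the threshold under any alternative. Of 600 values of single genes under the alternatives 585 kept their side of it, most of them values of the 38 genes that were not called. The other 15 were all *Atg3* or *Atg5* values no longer past it, and the cause was not tested. Of the 40 genes, 2 were called as reported, 1 with a mean value of at least 50, with quantile normalization or by DESeq2, and 0 with equal totals, without the trend, or with any 1 library left out (0 to 0). Their median log2 fold change of −0.038 was −0.0091 with equal totals (the median of all genes then moved to 0.02) and ran from −0.057 to −0.032 with 1 library left out, the lowest without WT replicate 1. The 5 calls in the surrounding lists became 3 with a mean value of at least 50, 0 without the trend and 1 to 5 with 1 library left out, the 1 call without S100A4-/- replicate 1 and again without S100A4-/- replicate 2. Over all genes, 1028 were called (831 higher, 197 lower), 783 higher and 55 lower with equal totals, 187 without the trend, 661 by DESeq2 and 249 to 898 with 1 library left out, the 249 without S100A4-/- replicate 1 and 339 without S100A4-/- replicate 2. At 2-fold the 550 became 287 with a mean value of at least 50, 181 without the trend, and 172 to 559 with 1 library left out, the 172 without S100A4-/- replicate 1 and 216 without S100A4-/- replicate 2. Where a library was left out, the lone library of its group was assumed to vary like the other group. Same-numbered libraries are pools of different animals, and the correlation of their deviations was 0.01, so the numbers were not taken to pair them. With the replicate number as a block, 1330 genes were called, *Atg3* and *Atg5* remained the 2 calls among the 40 genes, and the surrounding lists had 7 calls, adding *Cd164* and *Tbc1d7* as lower. In the order of levels, 10 of the 12 highest genes were shared with the longest transcript as the length.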
